A study of Capra hircus with 6 samples.

Results

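Long non-coding RNA (lncRNA) loci that differ by coat colour were followed across the white, brown and black skin of Pashmina goats. They are 10 of the 26938 loci of the deposited table, and they were chosen by their large measured ratios between colours, so those ratios are given as a description. Skin was taken by punch biopsy from the flank of 6 female goats of the Chanthangi Pashmina breed aged 26 months: 2 white, 2 brown and 2 black animals, compared here as white over black, white over brown and brown over black. All groups share breed, sex, age and body site, and coat colour is the only difference the labels give. Poly-adenylated RNA was sequenced, and each locus has 1 FPKM value per colour (fragments scaled to exon length and to the number of mapped fragments), which the authors made from both goats of that colour. Neither values per goat nor the number of fragments behind an FPKM could be used. No value therefore has a replicate error, and no difference was tested. The paper reports the range of reads per sample, but the number of fragments at each locus is unknown. In a biopsy of mixed cells, fewer cells of a type and less RNA per cell cannot be told apart.

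LncRNAs are transcripts longer than most small RNAs that do not code for a protein. Some act on genes beside their own locus, through their RNA or through the act of transcription, others act far away, and for many no function is known. As a class they are known for low levels and for expression in few tissues, so a level in whole skin can come from a small share of its cells. Neighbouring genes matter for reading them, because a lncRNA inside a gene cluster can change together with the cluster, and because a library that does not mark the strand cannot separate transcripts that overlap on opposite strands. The library kit named in the study's methods does not mark strand. The methods also state that all positions of reads mapping to several places were reported, so that copies of a gene family can share reads.

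All 10 symbols start with LOC, which marks loci predicted from sequence that have no name. The study classed them as lncRNA by filters on coding potential, although its tables are not uniform for LOC102186545. A later goat annotation lists 6 of them as lncRNA, and 4 (LOC106503218, LOC106502238, LOC106503620 and LOC102176288) have no entry there under the same symbol. That annotation classes 909 loci of the table as lncRNA, of which 377 had an FPKM of at least 1 in some colour. The median of their mean FPKM was 1.95, against 9.48 for protein-coding loci that passed the same limit. The members spanned nearly the whole range of these 377 loci. Loci under 1 FPKM in every colour were left out of the percentiles, so these do not rank the whole class. LOC106503218 averaged 528 FPKM over the colours and lay at the 99.7 percentile of the 377. LOC102184574 averaged 218 FPKM and lay at the 99.2 percentile, and LOC102185776 averaged 0.566 FPKM and lay at the 2.12 percentile.

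A locus was counted as 2-fold apart where the ratio of its FPKM values was at least 2 in either direction, with FPKM above 0 in both colours and at least 1 in one of them. Of the 9 members past this filter in white over black, 4 were at least 2-fold higher and 3 at least 2-fold lower in white skin. Over all 14134 loci that passed, 10.7% were higher and 2.29% lower. In white over brown, 3 of 9 were higher and 3 lower in white skin, beside 4.86% and 2.41% of 14207 loci. In brown over black, 3 of 9 were higher and 2 lower in brown skin, beside 3.52% and 1.25% of 13881 loci. With the median ratio of each comparison subtracted, the splits of the members stayed as they were, while those of all loci became 886 higher and 502 lower in white over black and 278 higher and 258 lower in brown over black, against 1513 and 323, and 488 and 174, without it. Because the members were selected on these ratios, nothing is read from their share. Ratios also moved with the listed span of loci. Where both colours reached 1 FPKM, white over black had a median log2 ratio of 0.23, and of 0.65 at spans over 100 kb. Brown over black gave medians of 0.20 and 0.54, and white over brown 0.03 and 0.12.

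**Figure D1:**
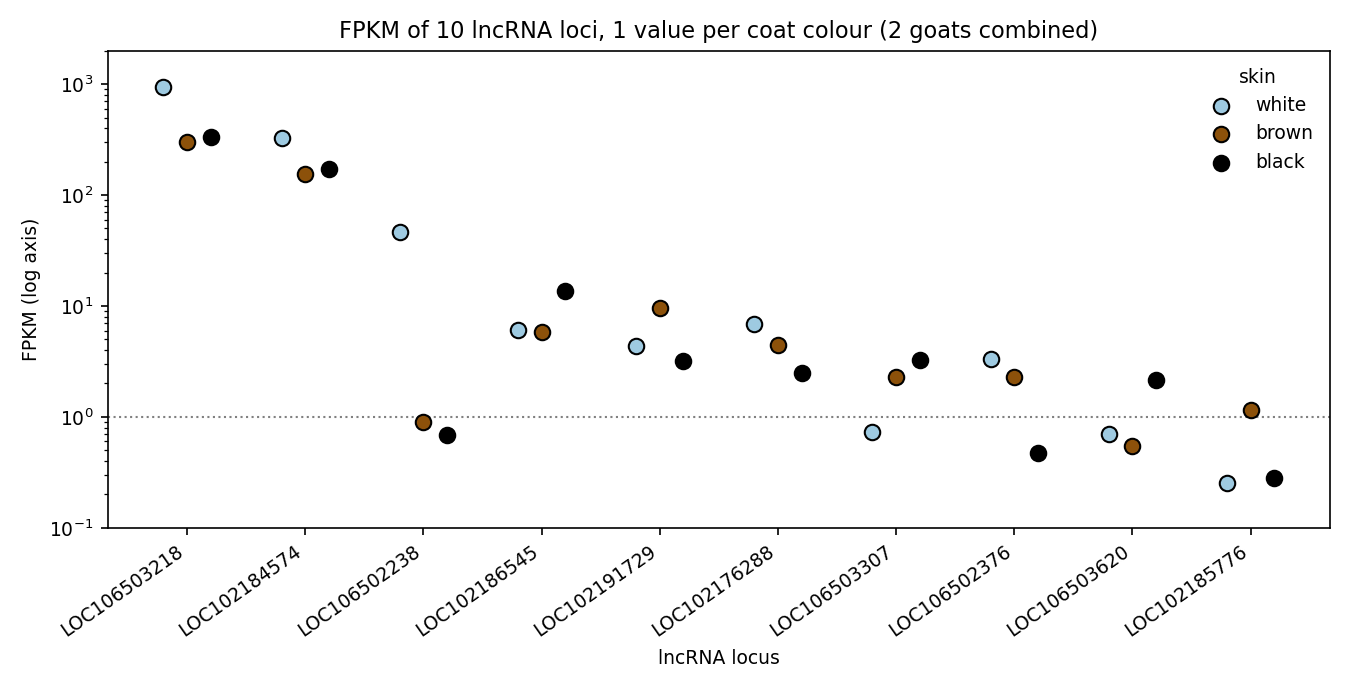
FPKM (log axis) of the 10 lncRNA loci in white, brown and black skin, ordered by mean level; each point is the authors' combined value of 2 goats, and the dotted line marks 1 FPKM. White skin is highest at the 3 most abundant loci, at LOC102176288 and at LOC106502376, black skin at LOC102186545, LOC106503307 and LOC106503620, and brown skin at LOC102191729 and LOC102185776.

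The colours fell in 5 kinds of order. In 3 loci (LOC106502238, LOC106503218 and LOC102184574) white skin stood above both other colours, which lay close together. In LOC106503307 white skin stood below both, and in LOC106502376 and LOC102176288 the order ran white, brown, black from high to low. In LOC106503620 and LOC102186545 black skin stood above the others, and in LOC102191729 and LOC102185776 brown skin did. The values nearest to the 2-fold limit were those of LOC102184574, with log2 ratios of 1.09 (white over brown), just inside, and 0.92 (white over black), just outside.

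LOC106502238 had the largest ratio of the lncRNA loci, members with no entry in the later annotation included. It lies on chromosome 6 from 113822174 to 113825211, a span of 3038 bp. Positions are given as deposited, on a genome build not given in the sources used here, and chromosomes were assigned from gene names shared with the later annotation. White skin had 46.6 FPKM, brown skin 0.894 and black skin 0.683. The white value was 52.1 times the brown value and 68.2 times the black value (log2 ratios 5.70 and 6.09), and the brown and black values were both under 1 FPKM. Of the 14010 loci with FPKM above 0 in all colours that passed the filter in both comparisons with white, 484 were at least 2 times higher in white against both other colours, and 1 was at least 32 times higher than both: this locus. Since fragment counts are unknown, the error of the low brown and black values is unknown too, and with 1 FPKM added to every value the log2 ratios were 4.65 and 4.82. A further 87 loci with at least 1 FPKM in white skin were listed at 0 in brown or black skin and have no ratio.

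Genes around LOC106502238 did not share its pattern. The nearest locus, LOC102188128, ends 110 bases away and had 11.7 FPKM in the white, 8.21 in the brown and 8.52 in the black skin. CTBP1, which codes for a transcriptional co-repressor, lies 6.74 kb away and had 17.0, 14.4 and 12.5 FPKM in white, brown and black skin. GAK, a kinase of clathrin-coated vesicles, had 9.21, 8.53 and 7.22 FPKM in the same order. Of the neighbours within 200 kb that passed the filter, 0 of 8 were higher and 1 was lower in white against black skin, and 1 of 7 was higher in white against brown skin. Both were unnamed loci with little RNA. LOC106502240 had 0.0995 FPKM in the white, 0.538 in the brown and 1.10 in the black skin, and LOC106502239 had 1.97 FPKM in the white, 0.892 in the brown and 2.09 in the black skin. The same 2 of 8 were lower in brown against black skin. The loci of the table with the most similar course over the 3 colours were PTPRN2, COL6A5 and LOC102186320. COL6A5, a collagen VI chain, had 107 FPKM in the white, 7.17 in the brown and 2.51 in the black skin. The likeness was a distance of log2 FPKM after each locus was centred over its 3 values, and no locus lay within 0.5 of LOC106502238.

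**Figure D2:**
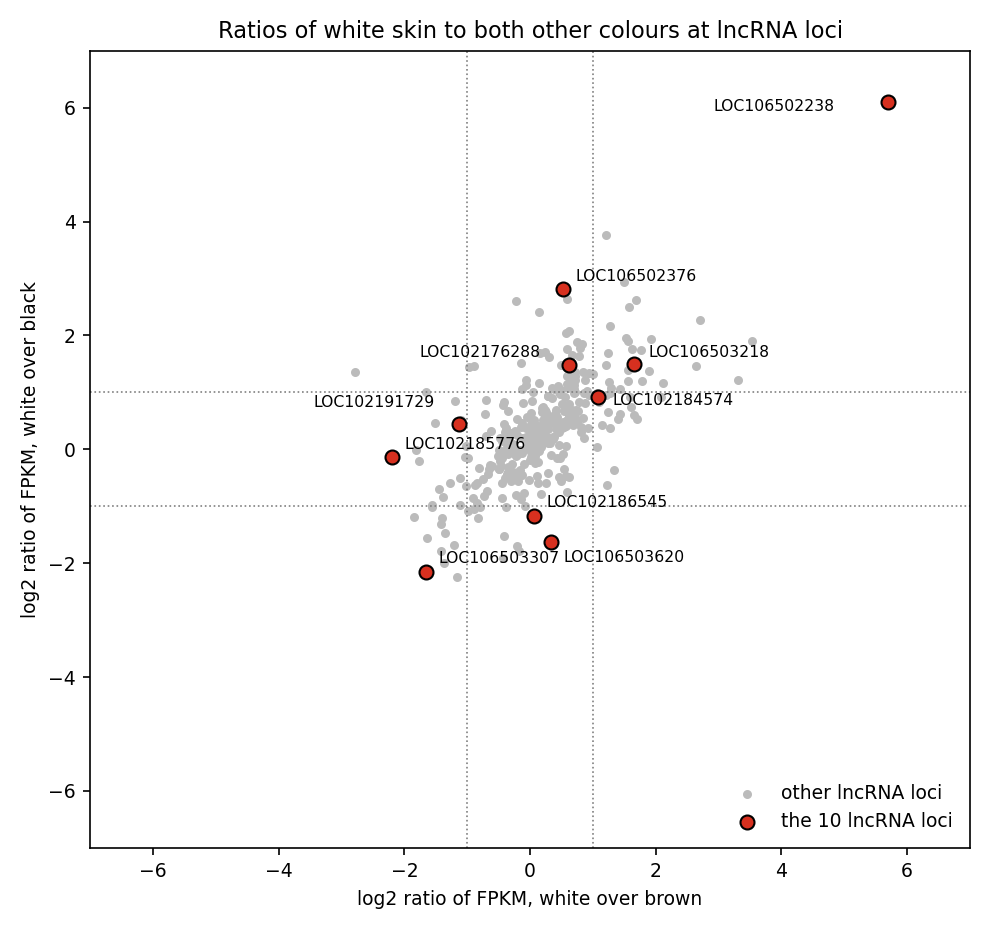
Log2 ratio of FPKM for white over brown (x axis) and white over black (y axis) at lncRNA loci with FPKM above 0 in all colours and past the filter in some comparison; red points are the 10 loci described, grey points the others, and dotted lines mark 2-fold. LOC106502238 lies alone at 5.70 and 6.09. White skin enters both axes, so the points share its value.

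LOC106503218 was the most abundant member, and nearly all measured genes of the cluster it lies in had ratios of the same direction. White skin had 948 FPKM, brown skin 301 and black skin 334. The log2 ratio was 1.50 (white over black) and 1.65 (white over brown), and brown and black skin differed by a log2 ratio of -0.15. The locus is listed with 35583 bp of chromosome 19 from 40421241 to 40456823, in the cluster of type I keratins and keratin-associated proteins. Keratins form the filaments of the hair shaft, and keratin-associated proteins cross-link them. The table gives the same start and end to the protein-coding LOC102177561, which had 421 FPKM in the white, 143 in the brown and 110 in the black skin. The exons and the length of each inside this shared span are not given, and reads of overlapping transcripts cannot be assigned to a strand.

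Of 27 neighbours within 200 kb, 23 passed the filter. In white over black, 22 of these 23 were at least 2-fold higher in white skin and 0 lower, with a median log2 ratio of 1.51 and a range from 0.58 to 2.00. In white over brown, 21 were higher and 0 lower, with a median of 1.43. In brown over black, 0 were higher and 1 was lower. This was LOC106503203, with 87.0 FPKM in the white, 20.6 in the brown and 42.9 in the black skin. The exceptions in the comparisons with white were KRT23, an epithelial keratin gene 117 kb away, with 158 FPKM in the white, 115 in the brown and 106 in the black skin, and LOC102174594, with a log2 ratio of 0.91 (white over brown). The cluster's hair keratins KRT39 and KRT40 had 38.9 and 44.1 FPKM in white, 16.7 and 16.3 in brown, and 11.9 and 16.9 in black skin. KRTAP3-1, a keratin-associated protein gene, was the most abundant neighbour with 7196 FPKM in the white, 2989 in the brown and 3098 in the black skin. LOC102172755 had the largest ratio to black (98.3 FPKM in the white, 41.5 in the brown and 24.5 in the black skin). Keratin-associated protein genes form families of similar copies, so the split of reads among them, and between them and LOC106503218, is uncertain.

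**Figure D3:**
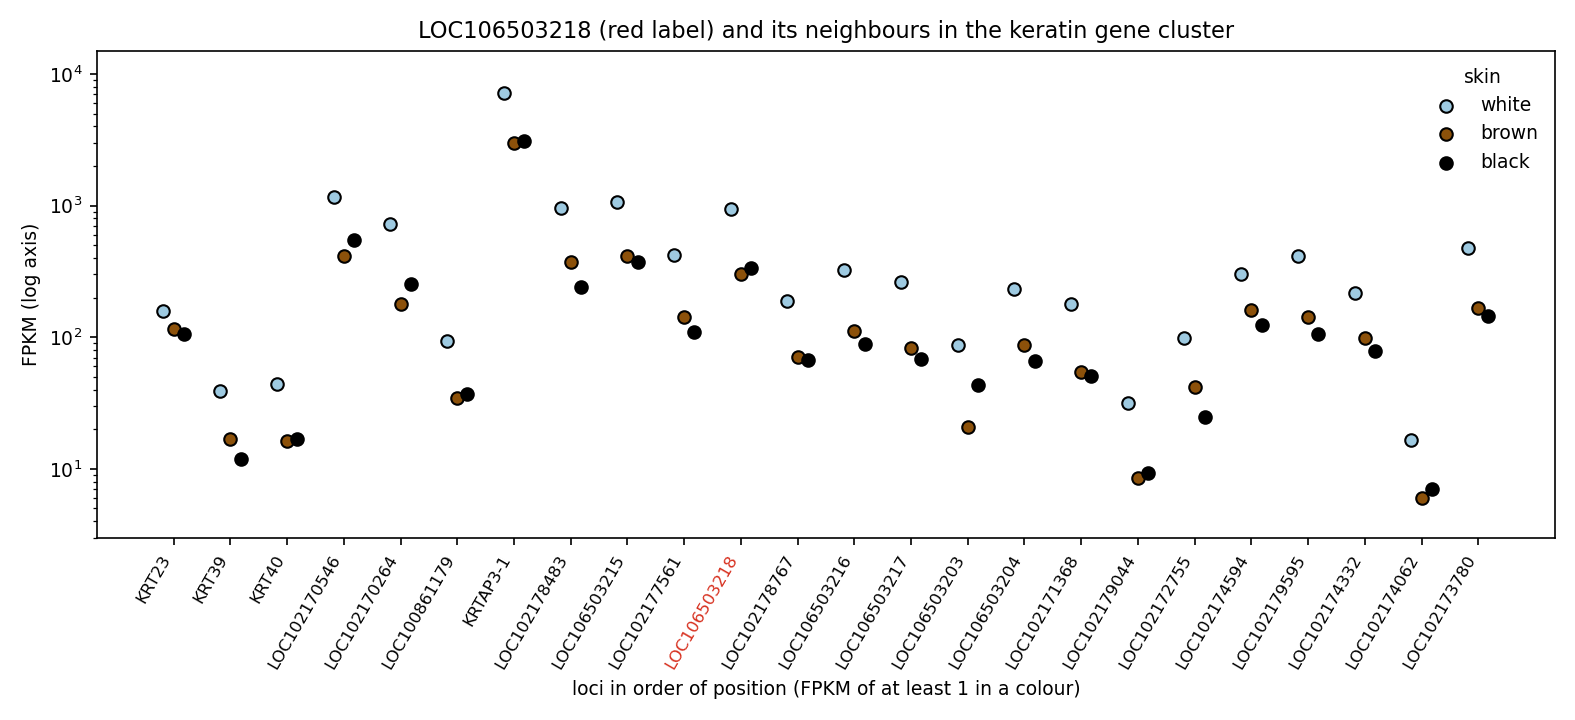
FPKM (log axis) of LOC106503218 (red label) and of the 23 loci within 200 kb that had at least 1 FPKM in a colour, in order of position, in white, brown and black skin. The white point is the highest at every locus shown, and brown and black points lie close together at most of them.

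Of the 14272 other loci compared with each member, 377 lay within a likeness distance of 0.5 of LOC106503218. The nearest were SOD3, an extracellular superoxide dismutase, with 7.66 FPKM in the white, 2.51 in the brown and 2.74 in the black skin, TPPP, a tubulin-binding protein, and LOC102171507. Lists of hair genes, with KRT39 and KRT40 among the first, mostly gave ratios of the same direction in the comparisons with white. Of 17 listed hair shaft keratins, 6 were found under their symbols, and 4 of these were at least 2-fold higher in white against black skin, 3 in white against brown skin and 1 in brown against black skin. Their summed level was 669 FPKM in the white, 372 in the brown and 316 in the black skin. KRT38 had 23.0 FPKM in the white, 21.3 in the brown and 6.52 in the black skin, so it did not share the gap between white and brown skin. Of 7 inner root sheath genes found, 3 were higher in white against black skin and 2 in white against brown skin, and their sum was 8170 FPKM in the white, 4936 in the brown and 4333 in the black skin. Of 13 regulators of the hair matrix, the dividing cells that build the shaft, 11 were higher in white against black skin and 3 in white against brown skin. Over all loci past the filter, 10.7% and 4.86% were higher in these comparisons. WNT3A went the other way in white over brown, with 3.42 FPKM in the white and 4.92 in the brown skin. FOXN1, a transcription factor of the follicle, had 47.9 FPKM in the white, 21.7 in the brown and 14.7 in the black skin. None of 16 proliferation genes, 9 sebaceous gland markers and 4 epithelial type I keratins past the filter was 2-fold apart in any comparison. Whether white samples held more growing hair follicle tissue was not tested.

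LOC102184574 was the second most abundant member, with 327 FPKM in the white, 154 in the brown and 172 in the black skin. Its log2 ratio was 1.09 (white over brown), 0.92 (white over black) and -0.17 (brown over black). It spans 1537 bp of chromosome 3 from 16452486 to 16454022, within the epidermal differentiation complex, a cluster of genes for proteins of the cornified envelope and of keratin-binding granules. Its neighbours did not all share its order. Of 10 neighbours past the filter, 3 were higher and 0 lower in white against black skin, and for white against brown skin the counts were 4 and 0. None were 2-fold apart between brown and black skin. Involucrin, IVL, had 130 FPKM in the white, 63.5 in the brown and 40.5 in the black skin. LOC102185235 had 209, 85.0 and 96.3 FPKM in white, brown and black skin, and C3H1orf68 had 214, 85.6 and 70.1 FPKM in the same order. KPRP, a keratinocyte proline-rich protein, had 72.1 FPKM in the white, 35.8 in the brown and 45.4 in the black skin. SPRR4, a cornified envelope precursor, went the other way between white and black skin, with 741, 725 and 1268 FPKM in white, brown and black skin.

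The nearest neighbour of LOC102184574 on one side, 13.4 kb away, was another lncRNA, LOC102184392, which had 3.05 FPKM in the white, 3.36 in the brown and 5.57 in the black skin, so the 2 lncRNAs of this stretch had opposite signs in white over black, with log2 ratios of 0.92 and -0.87. On the other side, 21.6 kb away, LOC102184770 had 35.9, 27.1 and 39.7 FPKM in white, brown and black skin. Over the listed genes of the complex and its S100 family, 5 of 21 were higher and 4 lower in white against black skin. For white against brown skin the counts were 5 and 3. Over all loci the shares were 10.7% and 2.29%, and 4.86% and 2.41%. The lower ones included S100A8, a calcium-binding protein of keratinocytes and neutrophils, with 19.6 FPKM in the white, 290 in the brown and 912 in the black skin, and the higher ones included TCHHL1 with 90.5 FPKM in the white, 21.5 in the brown and 38.3 in the black skin. As many as 1810 loci lay within a likeness distance of 0.5 of LOC102184574. ANKRD37, DGAT2 and TMEM132C were nearest. DGAT2, an enzyme of triglyceride synthesis, had 79.0 FPKM in the white, 37.0 in the brown and 41.0 in the black skin.

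LOC106503307 was the member with white skin below both other colours. It had 0.729 FPKM in the white, 2.29 in the brown and 3.23 in the black skin. The log2 ratio was -2.15 (white over black), -1.65 (white over brown) and -0.49 (brown over black). With 1 FPKM added to every value it was -1.29 (white over black) and -0.93 (white over brown), where it was no longer 2-fold. The locus lies on chromosome 20 from 3990622 to 4000260, with the same bounds in the table as EFCAB9, which codes for an EF-hand calcium-binding protein known from mouse sperm. EFCAB9 had 1.11 FPKM in the white, 3.93 in the brown and 4.36 in the black skin, with log2 ratios of -1.97 (white over black), -1.82 (white over brown) and -0.15 (brown over black). EFCAB9 also overlaps LOC106503307 in the later annotation. Reads of one can count for the other in such a library, so the 2 values are not separate evidence.

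Other genes near LOC106503307 did not follow. UBTD2, 2.05 kb away, had 9.75 FPKM in the white, 8.04 in the brown and 5.92 in the black skin. The lncRNA LOC102187714, 40.6 kb away, had 4.01 FPKM in the white, 1.69 in the brown and 2.56 in the black skin, a log2 ratio of 1.25 (white over brown). STK10, a serine/threonine kinase of blood cells and other tissues, had 3.55, 3.67 and 3.01 FPKM in white, brown and black skin. Of 5 neighbours past the filter, 1 was lower in white against black skin (EFCAB9), and 1 was higher (LOC102187714) and 1 lower (EFCAB9) in white against brown skin. The nearest locus in likeness was ACSM1, an acyl-CoA synthetase, with 0.837 FPKM in the white, 2.40 in the brown and 3.55 in the black skin.

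LOC106502376 and LOC102176288 shared the order white, brown, black, and both are listed with long spans. LOC106502376 spans 86748 bp of chromosome 7 from 105050517 to 105137264 and had 3.31 FPKM in the white, 2.31 in the brown and 0.470 in the black skin. The log2 ratio was 2.82 (white over black), 2.30 (brown over black) and 0.52 (white over brown). Relative to the median ratio of other loci of like length, the values were 2.33, 1.83 and 0.50. With a pseudocount of 1 FPKM the ratios to black were 1.55 for white and 1.17 for brown skin. Only 2 loci lay within 200 kb. The lncRNA LOC106502375, 8.49 kb away, had 3.31 FPKM in the white, 2.05 in the brown and 1.67 in the black skin, a log2 ratio of 0.99 (white over black). MAN2A1, a mannosidase of the Golgi, had 17.1, 22.9 and 13.9 FPKM in white, brown and black skin. Neither was 2-fold apart in any comparison. Among the loci most like LOC106502376 was GFI1, a zinc-finger repressor of blood cell development, with 1.66 FPKM in the white, 1.30 in the brown and 0.235 in the black skin.

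LOC102176288 is listed with 362979 bp of chromosome 25 from 34665156 to 35028134, the same bounds as CUX1, a homeobox transcription factor. The tRNA locus TRNAG-CCC also has these bounds, with 0 FPKM in every colour. The bounds are thus those of a shared interval, and the length of LOC102176288 itself is not given. It had 6.91 FPKM in the white, 4.49 in the brown and 2.49 in the black skin, with log2 ratios of 1.47 (white over black), 0.62 (white over brown) and 0.85 (brown over black). CUX1 had 17.0 FPKM in the white, 10.9 in the brown and 8.37 in the black skin, with log2 ratios of 1.02, 0.64 and 0.38 in the same order of comparisons. Relative to the median of other loci of like listed span, LOC102176288 had log2 ratios of 0.69, 0.41 and 0.24. With this correction it was no longer 2-fold apart in white over black, and the ratio of CUX1 was 0.23 (white over black). For both, the correction used the shared span, which need not be the length of LOC102176288. SH2B2, an adaptor protein of receptor signalling, lies 17.4 kb away and ran in the opposite direction with 1.58 FPKM in the white, 2.96 in the brown and 5.34 in the black skin. The other 7 neighbours past the filter were within 2-fold in each comparison. POLR2J, a subunit of RNA polymerase II, had 49.8, 64.4 and 65.4 FPKM in white, brown and black skin. The course of LOC102176288 was shared widely, with 1652 loci within a likeness distance of 0.5 and SEMA3D, CCNG2 and UBE2D1 nearest.

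**Figure D4:**
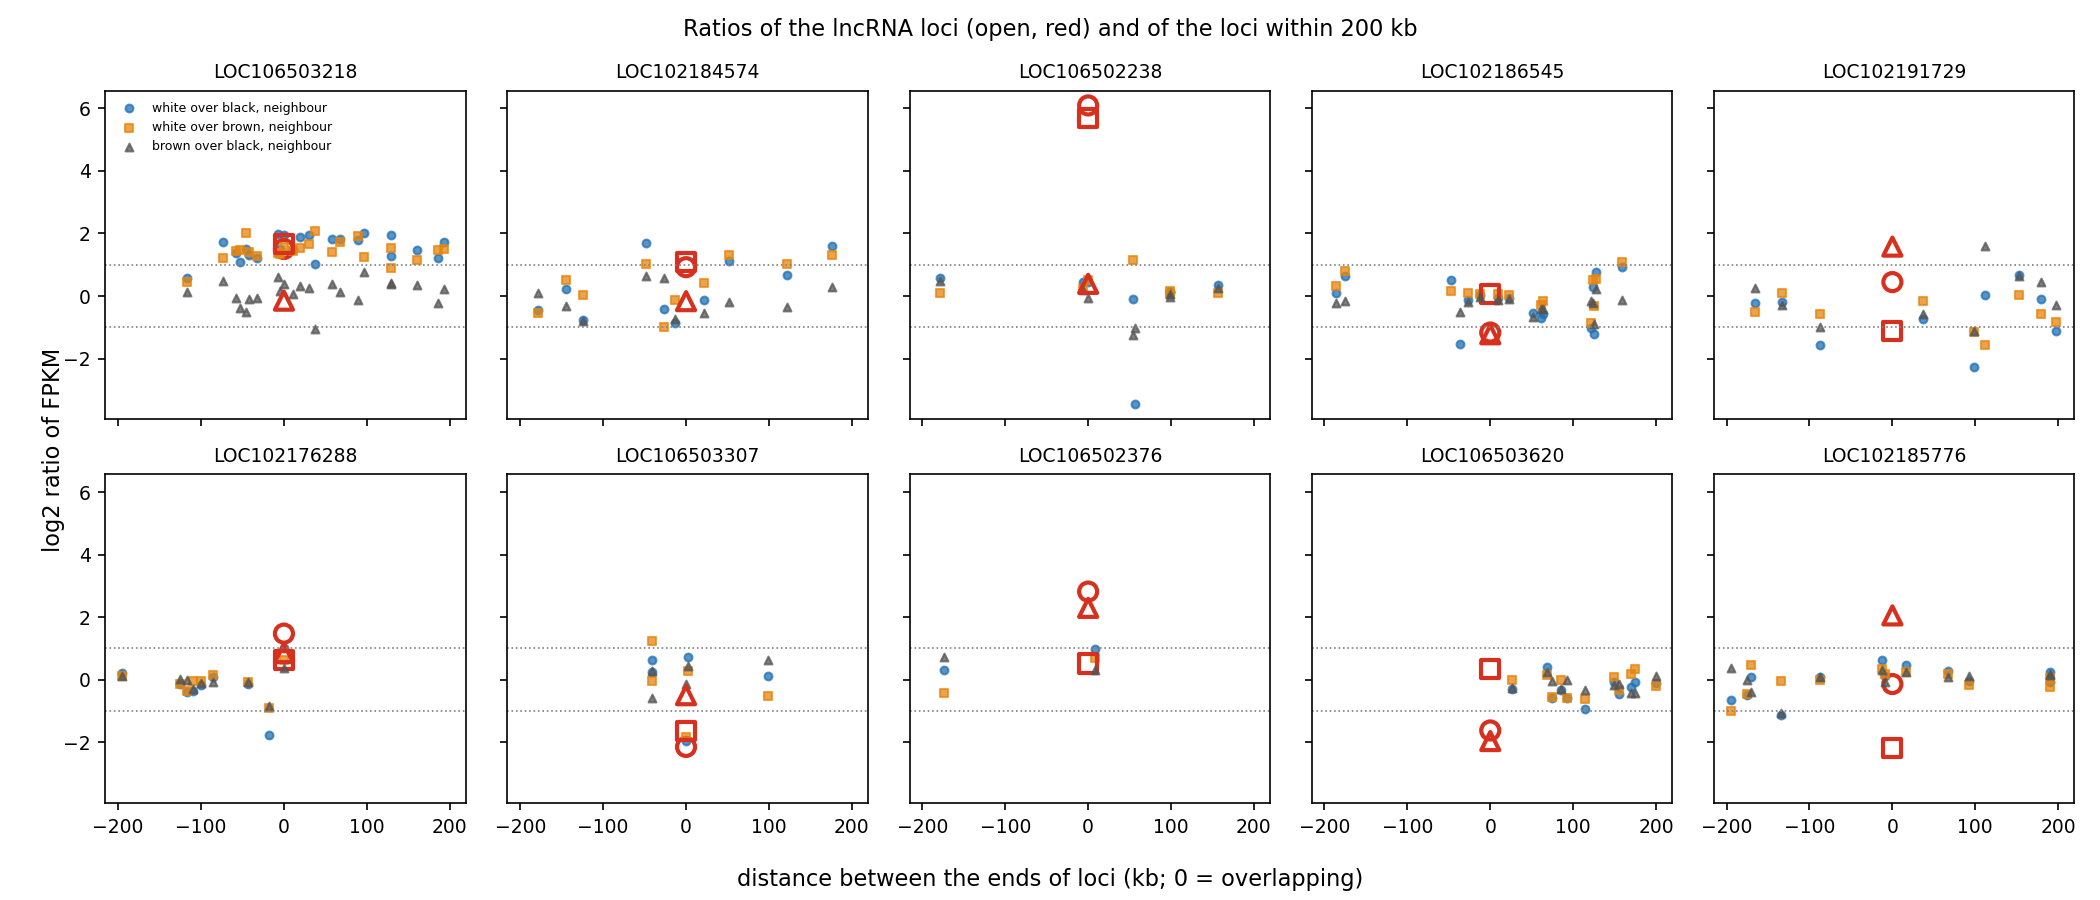
Log2 ratios of FPKM (y axis) of the 10 lncRNA loci (open red symbols at distance 0) and of loci within 200 kb (filled symbols) against the distance between the ends of loci in kb; circles are white over black, squares white over brown, triangles brown over black, and dotted lines mark 2-fold. Neighbours are drawn where they passed the filter, and the lncRNA loci in all comparisons. Around LOC106503218 the neighbours lie with the locus, from 0.58 to 2.00 (white over black), and around LOC106502238 they do not.

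LOC106503620 and LOC102186545 had their highest level in black skin. LOC106503620 lies on chromosome 25 from 35359468 to 35365346, 331333 bp from the listed bounds of LOC102176288. It had 0.696 FPKM in the white, 0.550 in the brown and 2.14 in the black skin, with log2 ratios of -1.62 (white over black) and -1.96 (brown over black). After addition of 1 FPKM to each value the ratios were -0.89, short of 2-fold, and -1.02. In white over brown it did not reach 1 FPKM and is not counted, and the authors' table marks it there as having too few alignments to test. Of 11 neighbours past the filter, 0 were 2-fold apart in any comparison. Within that limit, 10 had the sign of the locus in white over black and 9 in brown over black. Their median log2 ratios there were -0.29 and -0.17. IFT22, which codes for a protein of transport in cilia, lies 26.3 kb away and had log2 ratios of -0.29 (white over black), -0.01 (white over brown) and -0.28 (brown over black). On the other side COL26A1 was listed under 1 FPKM in every colour. EPHB4, an ephrin receptor of blood vessels, had 19.5, 22.6 and 20.8 FPKM in white, brown and black skin.

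Genes with a course like that of LOC106503620 included ACTA1, skeletal muscle actin, with 0.412 FPKM in the white, 0.298 in the brown and 1.22 in the black skin, and ISG20, an interferon-induced exonuclease, with 1.22, 1.02 and 4.46 FPKM in white, brown and black skin. The skeletal muscle list was low in all colours apart from DES, which smooth muscle also expresses: its 9 measured genes summed to 115 FPKM in the white, 119 in the brown and 144 in the black skin, of which DES gave 112, 117 and 140. MYLPF was at 0 in every colour. Neutrophil markers had their highest sum in black skin. Of 6 past the filter, 4 were lower and 1 (ITGAM) was higher in white against black skin. In brown against black skin 3 were lower and 0 higher. Over all loci, 2.29% were lower and 10.7% higher in the first comparison, and 1.25% and 3.52% in the second. The 8 measured ones summed to 11.9 FPKM in the white, 15.1 in the brown and 19.7 in the black skin. CXCR2 gave the largest part, with 6.31, 8.61 and 8.64 FPKM, and was level between brown and black skin. The others were low, LTF being the next highest in black skin at 2.83 FPKM. MMP8 was at 0 in white and brown skin and at 0.0329 FPKM in black skin. The part of these cells in the lncRNA values was not tested.

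LOC102186545 spans 1769 bp of chromosome 25 from 2326192 to 2327960. White skin had 6.03 FPKM, brown skin 5.80 and black skin 13.5. The log2 ratio was -1.17 (white over black), -1.22 (brown over black) and 0.06 (white over brown). The flanking genes were level. SRRM2, a splicing factor 12.2 kb away, had 46.4 FPKM in the white, 44.7 in the brown and 45.4 in the black skin, and FLYWCH2, 9.63 kb away on the other side, had 7.24, 6.94 and 7.53 FPKM in white, brown and black skin. Farther away, 3 of 16 neighbours past the filter were lower in white against black skin and 0 higher. THOC6, part of an mRNA export complex, had 9.48 FPKM in the white, 11.9 in the brown and 22.0 in the black skin. TNFRSF12A, the receptor of the cytokine TWEAK, had 58.8, 108 and 120 FPKM in white, brown and black skin, so that brown skin was near black skin there, unlike at LOC102186545. The serine protease PRSS33 had 0.406, 0.825 and 1.17 FPKM in the same order. None of 15 neighbours was 2-fold apart between brown and black skin. POU6F1, a homeobox factor, and CYGB, cytoglobin, were among the loci most like it in course. CYGB had 2.48 FPKM in the white, 2.58 in the brown and 5.39 in the black skin.

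LOC102191729 and LOC102185776 had their highest level in brown skin. LOC102191729 spans 2204 bp of chromosome 18 from 43999158 to 44001361 and had 4.39 FPKM in the white, 9.63 in the brown and 3.22 in the black skin. The log2 ratio was -1.13 (white over brown), 1.58 (brown over black) and 0.45 (white over black). With a pseudocount of 1 FPKM the white over brown ratio was -0.98 and fell short of 2-fold. It lies among abundant unnamed protein-coding loci, whose order over the colours was not uniform. LOC102168380, 180 kb away, had its highest value in brown skin as the lncRNA did. Its values were 466 FPKM in the white, 691 in the brown and 503 in the black skin. Others had their highest value in black skin. LOC102191166, 98.9 kb away, had 574 FPKM in the white, 1280 in the brown and 2759 in the black skin. LOC106503120 had 1032, 1537 and 3030 FPKM and LOC102191453 had 981, 1093 and 1628 FPKM in white, brown and black skin. Of 9 neighbours past the filter, 3 were lower in white against black skin (LOC102191166, LOC106503120 and LOC102169411) and 0 higher, while the lncRNA was slightly above its black level in white skin. In white over brown, 2 of the 9 were lower and 0 higher, and 7 had the sign of the lncRNA. In brown over black, 1 was higher and 1 lower, and 4 had its sign. LOC102190903, 112 kb away, had a peak in brown skin like the lncRNA, with 13.9 FPKM in the white, 41.1 in the brown and 13.5 in the black skin, log2 ratios of -1.56 (white over brown) and 1.60 (brown over black).

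LOC102185776 was the least abundant member, with 0.254 FPKM in the white, 1.16 in the brown and 0.280 in the black skin. It lies on chromosome 19 from 54205538 to 54218185. The log2 ratio was -2.19 (white over brown) and 2.06 (brown over black). In white over black it stayed under 1 FPKM in both colours and is not counted, and the authors' table marks it there as having too few alignments. With 1 FPKM added to every value its log2 ratios were -0.79 and 0.76, short of 2-fold. Another lncRNA, LOC102185500, ends 133 bases away and also had its highest value in brown skin, 0.660 FPKM, against 0.312 in white and 0.451 in black skin, all under 1 FPKM. SPHK1, a sphingosine kinase, had 11.6 FPKM in the white, 10.1 in the brown and 10.7 in the black skin, and PRPSAP1, a protein associated with nucleotide precursor synthesis, had 31.2, 26.3 and 22.4 FPKM in white, brown and black skin. Of 12 neighbours past the filter, 1 was 2-fold apart in each comparison, and each was lower: CYGB in white and in brown over black, and the lncRNA LOC102184758 in white over brown (2.05 FPKM in the white, 4.13 in the brown and 3.20 in the black skin). The locus most like LOC102185776 was JCHAIN, the chain that joins antibodies secreted by plasma cells, with 0.987 FPKM in the white, 4.96 in the brown and 1.20 in the black skin.

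Over all members, 145 different loci lay within 200 kb. In white over black, 26 of 105 past the filter were higher and 10 lower in white skin. Without the keratin cluster around LOC106503218, 4 of 82 were higher and 10 lower, so that cluster held 22 of the 26. As shares, this was 4.88% higher and 12.2% lower without the cluster, beside 10.7% and 2.29% of all loci. In white over brown the counts were 28 higher and 4 lower of 102, and 7 higher and 4 lower of 79 without the cluster. The latter were 8.86% and 5.06%, beside 4.86% and 2.41% of all loci. In brown over black, 1 of 104 was higher and 5 lower, which is 0.96% and 4.81%, beside 3.52% and 1.25% of all loci. These shares of neighbours were not tested. In 3 of the 10 members another gene with a measured level had the same bounds in the table (LOC102177561, EFCAB9 and CUX1). Each ran in the direction of its member in both comparisons with white. In brown over black, LOC102177561 had a log2 ratio of 0.38 against -0.15 for LOC106503218, while EFCAB9 and CUX1 had the sign of their members.

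LncRNA loci as a class were counted in the same way. In white over black, 71 of 335 were higher and 20 lower in white skin, in white over brown 46 of 346 were higher and 29 lower, and in brown over black 31 of 311 were higher and 17 lower in brown skin. With the median subtracted, 45 were higher and 29 lower in white over black, and 27 higher and 24 lower in brown over black. Either direction together and nothing subtracted, this amounts to 27.2%, 21.7% and 15.4% of lncRNA loci, beside 12.99%, 7.27% and 4.77% of all loci. These counts hold the 6 members with an entry, which were picked for large ratios. Without them the shares of lncRNA loci were 26.7%, 20.9% and 14.4%. The shares moved with the level, and at lncRNA loci with at least 5 FPKM in a colour the shares were 16.3%, 12.3% and 9.28%, beside 9.38%, 4.96% and 2.32% of all loci at that limit. These shares were not tested. The 4 members with no entry in the later annotation are not in these counts. With them added, 26 loci were at least 2 times higher in white against both other colours, and LOC106502238 had the largest ratios of these. By its largest ratio in any comparison LOC102184574, the member nearest to the 2-fold limit, ranked at 130 of 371, the 367 lncRNA loci past the filter in some comparison and these 4 members, so the 10 loci are not the 10 most different ones.

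Melanin genes gave no single order to set the lncRNAs against. Of 17 pigment genes, 5 were higher and 4 lower in white against black skin, and 1 was higher and 5 were lower in white against brown skin. Of 15 past the filter, 6 were higher and 0 lower in brown against black skin. Over all loci the shares higher and lower were 10.7% and 2.29%, 4.86% and 2.41%, and 3.52% and 1.25% in the same order. TYRP1, an enzyme of melanin synthesis, had 0.120 FPKM in the white, 9.72 in the brown and 9.79 in the black skin, and PMEL, the scaffold protein of the melanosome, had 3.77, 22.5 and 30.9 FPKM. LOC106503307 shared the low white value, with smaller ratios. DCT, another melanin enzyme, had 1.05 FPKM in the white, 5.60 in the brown and 2.50 in the black skin, its highest value in brown skin as at LOC102191729 and LOC102185776. ASIP, which codes for the agouti signalling protein, had 177 FPKM in the white, 114 in the brown and 0.882 in the black skin. This order was also found at LOC106502376 and LOC102176288. At LOC106502238 the brown value lay close to the black value instead, both under 1 FPKM. With 3 values per locus, such likeness is a description only.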

How the data were processed

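Skin RNA of 2 white, 2 brown and 2 black goats was sequenced from poly-A selected libraries. According to the methods and the submitters' processing notes, the authors aligned cleaned reads to the goat genome with TopHat and a Bowtie2 index, reported all positions of reads mapping to several places, assembled transcripts with Cufflinks and compared colours with CuffDiff. The genome build is not given in the sources used here. The deposited FPKM values were made by the authors as 1 value per colour over its 2 goats, so replicates cannot be separated. How libraries were scaled is not stated. The table's fold changes, test statistics, p-values and q-values hold the authors' own comparisons and were not used. Its status column served only to mark loci with too few alignments. The table held 0 columns of per-sample values.

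Ratios were computed from the FPKM values with Python 3.11.15, pandas 2.3.3 and NumPy 2.4.6, and plots were drawn with matplotlib 3.10.9. Loci with FPKM above 0 in both colours and at least 1 in one of them were kept, and a ratio of at least 2 was counted. Neighbours lay within 200 kb between the ends of loci. Positions are those of the table, with starts counted from 1. Of its loci, 4381 share their bounds with another gene, so a listed span can be that of an interval holding several genes. Chromosomes and lncRNA classes came from the gene names shared with a later goat annotation (RefSeq, ARS1.2), which matched 23873 names; 13 loci named for protein genes but classed there as lncRNA were left out of that class. For the span correction, the median log2 ratio of each of 20 bins of listed locus span was subtracted. Likeness was the Euclidean distance of centred log2 FPKM over 3 colours, and the 3 nearest loci per member were recorded. Named neighbours were those that overlap a member, the nearest on each side and up to 6 with the largest ratios; per list up to 4 of highest FPKM and up to 4 of largest ratio; other neighbours named were chosen after their values were seen. The members and 11 gene lists were chosen with earlier results of these data known, and a list of named lncRNAs matched 0 loci. The steps were tested on simulated data. No sequences were used here.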

Additional observations from a re-analysis of the deposited data

How the results depend on the processing

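No paired analysis was possible because the table holds 1 combined value per colour, and for the same reason no goat could be left out in turn. Depth limits the low loci most, since fragment counts are unknown. All 18 member ratios of at least 2-fold kept their sign with a pseudocount of 0.1 or 1, after subtraction of the overall median and after subtraction of the median of like spans, and 12 stayed at 2-fold under all 4. The cause of the changes below was not tested. Counts follow the order white over black, white over brown and brown over black unless a comparison is named. For all loci, lncRNA loci and neighbours, smaller changes are left out, so a count not listed was not always unchanged.

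Members 2-fold apart numbered 7, 6 and 5. With pseudocount 1 they numbered 6, 3 and 4, and with at least 5 FPKM 4, 4 and 2. Subtraction of span medians gave 6, 6 and 5, and 4-fold gave 3, 2 and 2. All loci 2-fold apart numbered 1836, 1033 and 662. These became 857, 502 and 207 with pseudocount 1, 3415, 2364 and 1998 with FPKM above 0 as the only filter, 936, 501 and 225 with at least 5 FPKM, and 240, 145 and 88 at 4-fold. Subtraction of span medians gave 1201 in white over black. Of the lncRNA loci, 91, 75 and 48 were 2-fold apart. These became 29, 22 and 15 with pseudocount 1, 198, 168 and 160 with FPKM above 0, 17, 13 and 9 with at least 5 FPKM, and 14, 10 and 8 at 4-fold. Neighbours 2-fold apart numbered 36, 32 and 6. At 4-fold the counts were 3, 2 and 0, and a window of 500 kb gave 57 in white over black and 14 in brown over black. Brown over black also gave 3 with pseudocount 1, 12 with FPKM above 0 and 10 after subtraction of the median.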
